A study of Mus musculus with 12 samples.

Results

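Untreated liver was compared between a pair of mouse models of cholestasis, across all genes: 3 RNA-seq libraries titled MDR against 3 titled BDL, of 12 libraries in the series. BDL libraries came from mice with a bile duct ligation of 7 days. The MDR libraries are read as the Abcb4-/- mice that the series description names as its second model. The other 6 libraries, titled BDL_H and MDR_H, came from the same models given HDCA (hyodeoxycholic acid, a bile acid) at 100 mg/kg, for 4 days from 3 days after surgery in the ligated mice and for 21 days from an age of 60 days in the Abcb4-/- mice. The groups called untreated carry no H in their titles, and no label names a vehicle. No label gives the strain or sex of any mouse, the age of the untreated mice, a sham operation for the MDR mice, or whether replicates came from separate animals, so the p-values measure the spread between these samples, which may be technical. Model, surgery, age and strain cannot be told apart in this comparison. Expression is given as FPKM (fragments per kilobase of gene, scaled to the library's mapped fragments) for 16970 genes. A total of 10805 reached 1 FPKM in no fewer than 3 of the 12 libraries and entered the test.

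Bile is made by hepatocytes, which secrete bile salts and phospholipid across the canalicular membrane, and drains through ducts lined by cholangiocytes. ABCB4 moves phosphatidylcholine into bile, where it shields the duct lining from bile salts; without it bile injures small ducts and collagen is laid down around them over months. Ligation instead blocks the outflow of bile that still contains phospholipid, and injury, inflammation and ductular growth follow within days. In either setting stellate cells and portal fibroblasts are the main sources of scar matrix.

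The libraries held 35365320 to 39980100 recovered reads. The 10 genes with the most reads took 20.2 to 20.9% of the reads in BDL and 14.5 to 16.5% in MDR, and the number of genes at 1 FPKM or more was 9066 to 10093 in BDL and 10318 to 10974 in MDR. BDL replicate 1 stood apart, with a median log2(FPKM + 1) of 2.48 against 2.81 and 2.85 in the other BDL libraries. Alb, the serum albumin of hepatocytes, was listed at 29883.7, 34756.2 and 34226.5 FPKM in BDL and 20040.0, 24302.0 and 28312.8 in MDR, so hepatocyte RNA was present in every library. The summed list of 34 hepatocyte secreted proteins and lineage factors was 67381.3 to 81337.3 FPKM in BDL and 51796.1 to 59067.1 in MDR, and its part in the differences of other genes was not tested. Abcb4 itself was not lower in MDR: it stood at 52.8, 151.9 and 167.8 FPKM in BDL and at 181.3, 150.1 and 161.8 in MDR (limma log2 difference 0.56 ± 0.41 SE, adjusted p = 0.339). A gene-level value does not show whether the reads cover a deleted part, so it neither checks nor refutes the genotype, and the samples are called the MDR libraries throughout. The MDR libraries also differed in Y-linked reads. Ddx3y, a Y-linked helicase gene, was at 9.35, 9.37 and 10.9 FPKM in BDL, at 10.5 in MDR replicate 1 and listed at 0 in MDR replicates 2 and 3. Cyp2a4, a P450 higher in female liver, was at 0.510 FPKM in MDR replicate 1 against 65.2 and 80.7 in the other MDR libraries. Of 31 tested genes known as higher in male liver, 0 passed the test in limma or in limma-voom, with 1 higher and 1 lower at an unadjusted p under 0.05. Without MDR replicate 1, 6 of them were called lower, with a median log2 difference of -0.68, and with that library alone against BDL the median was 1.70. Of 18 tested genes known as higher in female liver 2 were higher and 1 lower, and 4 and 1 without MDR replicate 1. Over all genes tested with all libraries, 15.1% passed as higher and 1.07% as lower. Ntrk2, 1 of the 2, did not follow the Y-linked reads, at 4.15 FPKM in MDR replicate 1 and 5.37 and 3.73 in replicates 2 and 3. What the unequal Y-linked reads contribute to other genes was not tested.

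With these data 1630 genes were higher and 116 lower in MDR, at a Benjamini-Hochberg adjusted p under 0.05 in limma, or 15.1% and 1.07% of the genes tested. The whole distribution was shifted: the median log2 difference of all genes tested was 0.25, and it was -0.01 after median-of-ratios scaling and -0.02 after quantile normalization. The split of the calls moved with it, from 93.4% higher as deposited to 63.8% (671 higher, 6.21%, and 381 lower, 3.53%) and 58.2% (548 higher, 5.07%, and 393 lower, 3.64%). All 671 genes called higher after median-of-ratios scaling were among the 1630, and 114 of the 116 lower genes kept their call. Leaving out MDR replicate 2 gave 452 higher genes and 37 lower ones, leaving out MDR replicate 3 gave 626 and 62, and leaving out BDL replicate 2 gave 812 and 53. Leaving out BDL replicate 1 gave 1012 higher genes. In every fit that left out 1 of the 6 libraries, 427 genes stayed called higher and 34 lower. Of the lower calls 51.7% differed by at least 1 on the log2 scale, against 26.6% of the higher calls. All 3 MDR libraries lay above all 3 BDL libraries for 39.2% of the genes tested and below them for 3.12%, and so groups that do not overlap were common in the upward direction.

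**Figure D1:**
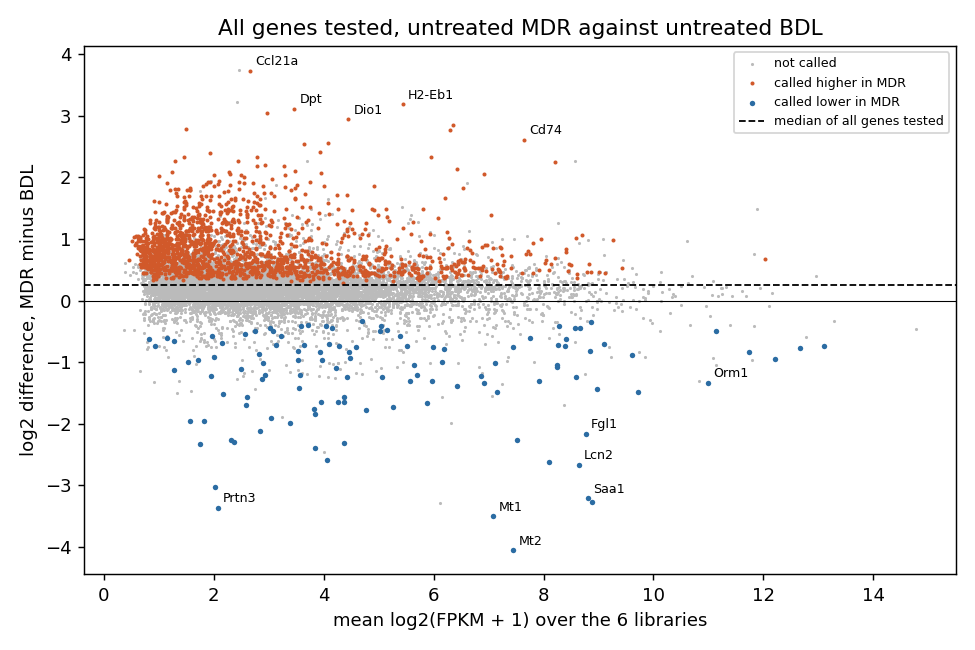
Log2 difference of each tested gene, MDR minus BDL, against its mean log2(FPKM + 1) over the 6 libraries; orange points passed the test as higher, blue as lower and grey did not. The dashed line marks the median of all genes tested, at 0.25, and most calls lie above it while the calls below reach -4.05 for Mt2.

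Acute phase proteins were lower in MDR. Of 28 tested members of the list 17 were lower and 0 higher (25 lower and 0 higher at an unadjusted p under 0.05), with a median log2 difference of -1.19. The count was also 17 after median-of-ratios scaling, which raised lower calls over all genes from 116 to 381 and so is a weak check here. With quantile normalization 14 were lower. Most are liver plasma proteins that rise with IL-6 in inflammation. Saa1, serum amyloid A, was at 2292.2, 964.4 and 1146.1 FPKM in BDL and at 177.3, 120.1 and 148.3 in MDR, a mean 9.88-fold lower (log2 difference -3.21 ± 0.74 SE, adjusted p = 0.0178). Every MDR library lay below every BDL library, but the call was lost without BDL replicate 1, MDR replicate 2 or MDR replicate 3. Saa2 was 10.7-fold lower and Saa3 6.80-fold lower, and each lost its call in at least 4 of the 6 fits that left out a library. Lcn2, the iron-siderophore binder lipocalin, was at 967.5, 979.6 and 1063.3 FPKM in BDL and at 94.3, 180.8 and 230.7 in MDR (adjusted p = 0.0133). Its BDL values lay close together, and its call stood when any of the 6 libraries was left out. Orm2, an acid glycoprotein of plasma, was 5.86-fold lower (adjusted p = 0.00417), at 760.6, 498.2 and 823.0 against 60.0, 162.0 and 133.5 FPKM. Orm1, of the same family, was 2.56-fold lower, from a mean of 3284.5 ± 780.5 (SD, n = 3) to 1284.6 ± 112.6 FPKM. Apcs, serum amyloid P, was 5.33-fold lower and Fgl1, a hepatocyte-secreted fibrinogen-like protein, 4.91-fold lower. The number of members called was 7 without MDR replicate 2, 8 without MDR replicate 3, 9 without BDL replicate 2 and 10 without MDR replicate 1.

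Metallothioneins, small cysteine-rich proteins that bind zinc and copper, showed the lowest log2 differences among the genes named by size. Mt2 was at 1520.5, 931.9 and 252.7 FPKM in BDL and at 27.5, 52.0 and 51.3 in MDR, a mean 20.7-fold lower (log2 difference -4.05 ± 0.74 SE, adjusted p = 0.00676). Mt1 was at 1109.5, 559.6 and 152.3 in BDL and at 22.5, 48.6 and 56.1 in MDR, 14.3-fold lower (adjusted p = 0.0165), and this call was lost without BDL replicate 2 or MDR replicate 2. The spread was wide within BDL for both genes, with replicate 3 the lowest and replicate 1 the highest, yet no library of one model overlapped the other. Of 22 tested genes for metallothionein, iron and zinc handling 5 were lower and 2 higher, with 3 lower without BDL replicate 2, MDR replicate 1 or MDR replicate 3 and 2 lower without MDR replicate 2; Cp, the copper-carrying ferroxidase ceruloplasmin, was 1.76-fold lower and Bmp6, the endothelial signal for hepcidin, 2.92-fold higher. The RefSeq promoter window of Mt1 (GRCm38.p6, chr8:94178839-94179138, plus strand, 250 bases before to 50 after the table's start of the gene) is shown because the metal response element core is spelled in it. Capitals mark matches to TGCACNC on either strand, of which it held 2; 12.6% of 32851 promoter windows in the table held at least 1.
Mt1: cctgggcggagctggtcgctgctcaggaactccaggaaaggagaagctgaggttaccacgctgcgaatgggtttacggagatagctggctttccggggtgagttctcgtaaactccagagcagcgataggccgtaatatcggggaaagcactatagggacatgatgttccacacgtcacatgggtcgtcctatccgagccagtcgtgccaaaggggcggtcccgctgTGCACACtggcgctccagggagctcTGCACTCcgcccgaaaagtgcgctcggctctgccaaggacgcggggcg

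Some stress and early-response transcripts were lower, and most members of these lists did not pass. In the list of 29 tested genes for ER stress and the integrated stress response, 6 were lower and 0 higher (3 higher and 9 lower at an unadjusted p under 0.05, and 6 lower in limma-voom), and 3 were lower without MDR replicate 2. The median log2 difference of the list was -0.22. Of 24 tested heat shock and immediate early genes 4 were lower (Btg2, Fos, Junb and Zfp36) and 1 higher, with 8 lower after median-of-ratios scaling and 7 without BDL replicate 1. The call of Fos was lost without BDL replicate 2, BDL replicate 3 or any of the MDR replicates. Herpud1, an ER membrane protein of protein quality control, was at 245.0, 243.4 and 220.3 FPKM in BDL and at 89.4, 74.1 and 89.0 in MDR, 2.81-fold lower (adjusted p = 0.00268). Atf4, the transcription factor of the integrated stress response, was 1.75-fold lower and Asns, asparagine synthetase and a target of ATF4, 6.54-fold lower. Fgf21, a hepatokine of starvation and stress, was at 16.7, 10.7 and 6.13 FPKM in BDL and at 0.447, 0.762 and 3.88 in MDR (adjusted p = 0.0203), a call that was lost in 4 of the fits without 1 library. Btg2, an antiproliferative early gene and p53 target, was 3.77-fold lower (20.3, 27.9 and 27.6 against 6.60, 6.96 and 6.57 FPKM, adjusted p = 0.00172). Cdkn1a, the cell cycle inhibitor p21, was 3.54-fold lower (not called without BDL replicate 2 or MDR replicate 2), Junb 2.42-fold lower and Zfp36, which speeds decay of cytokine mRNAs, 2.50-fold lower. The small heat shock gene Hspb1 went the other way, at 14.4, 24.3 and 18.3 FPKM in BDL and 39.7, 41.2 and 76.2 in MDR (adjusted p = 0.0210), a call lost without BDL replicate 1, MDR replicate 2 or MDR replicate 3.

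Cholesterol synthesis and uptake was lower in MDR. All 26 members tested had a negative log2 difference and 14 passed the test. After median-of-ratios scaling 22 did, a scaling that raised lower calls over all genes from 116 to 381. The median log2 difference was -0.99. Sqle, squalene epoxidase, was 3.38-fold lower (68.7 ± 6.81 against 20.3 ± 4.45 FPKM, mean ± SD, n = 3; adjusted p = 0.00213), and Hsd17b7, a sterol reductase, was 2.12-fold lower. Mvd, which decarboxylates mevalonate diphosphate, was at 25.3, 26.1 and 26.9 FPKM in BDL and at 7.22, 8.25 and 4.71 in MDR, 3.88-fold lower (adjusted p = 0.00912). The groups did not overlap for any of these 3 genes. The count of members called was 7 without BDL replicate 1, 7 without BDL replicate 2, 9 without BDL replicate 3, 9 without MDR replicate 1, 8 without MDR replicate 2 and 6 without MDR replicate 3.

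MHC class II genes, which present antigen on macrophages, dendritic cells and B cells, were higher in MDR. Of 11 tested members of the list 10 were higher and 0 lower (11 higher at an unadjusted p under 0.05), with a median log2 difference of 1.36, and 9 were higher after median-of-ratios scaling. H2-Eb1 was at 5.40, 23.0 and 18.3 FPKM in BDL and at 95.1, 187.9 and 121.3 in MDR, 8.66-fold higher (log2 difference 3.18 ± 0.45 SE, adjusted p = 0.00270). H2-Aa was 6.67-fold higher (12.6, 48.5 and 41.0 against 156.6, 315.0 and 209.4), H2-Ab1 6.24-fold and Cd74, the invariant chain, 5.61-fold. BDL replicate 1 was the lowest library for each of these 4 genes. The 3 MDR libraries lay above the 3 BDL libraries, as they did for 39.2% of all genes tested. The promoter windows of H2-Aa (GRCm38.p6, chr17:34287774-34288073, minus strand) and H2-Eb1 (chr17:34305617-34305916, plus strand) are shown because both genes lead the list and both windows hold the Y box, a CCAAT-like element of class II promoters, written CTGATTGG here and in capitals. Of the 12 list members with a window 3 held it (H2-Aa, H2-Eb1 and H2-Oa), against 4.10% of all windows.
H2-Aa: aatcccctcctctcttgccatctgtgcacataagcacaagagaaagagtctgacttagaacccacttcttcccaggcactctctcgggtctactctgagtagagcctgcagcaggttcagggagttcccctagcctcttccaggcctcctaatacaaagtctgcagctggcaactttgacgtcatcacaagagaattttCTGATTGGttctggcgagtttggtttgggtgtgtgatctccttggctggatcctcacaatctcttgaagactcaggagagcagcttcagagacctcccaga
H2-Eb1: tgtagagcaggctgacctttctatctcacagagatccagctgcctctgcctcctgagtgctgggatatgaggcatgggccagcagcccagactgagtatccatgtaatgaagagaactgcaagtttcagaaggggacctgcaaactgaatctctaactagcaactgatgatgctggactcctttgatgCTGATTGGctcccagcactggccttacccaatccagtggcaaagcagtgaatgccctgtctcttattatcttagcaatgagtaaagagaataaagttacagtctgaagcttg

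The immune lists moved unevenly, against a background in which 15.1% of tested genes were called higher in MDR and 1.07% lower. Among 22 recruited and scar-associated macrophage markers 8 were higher and 1 lower, whereas among 17 Kupffer cell markers 1, the complement gene C1qa, was higher and 0 lower (1 higher and 2 lower after median-of-ratios scaling, and C1qa not called without BDL replicate 1, MDR replicate 2 or MDR replicate 3, while 3 were higher without MDR replicate 1 and 2 without BDL replicate 3); the difference between the lists was not tested. In bulk liver, fewer cells of a type and less RNA per cell cannot be told apart. Ms4a7, a gene of monocyte-derived macrophages, was at 0.193, 1.00 and 0.956 FPKM in BDL and at 6.02, 12.4 and 6.22 in MDR (limma, adjusted p = 0.00430). Ly6c2, a monocyte marker, overlapped between the groups, at 0.719, 1.67 and 2.72 against 1.46, 3.67 and 1.79 FPKM. Itgam was narrowly apart, at 1.27, 2.37 and 2.04 against 2.39, 4.38 and 2.75. Ccr2 did not overlap, at 0.459, 1.75 and 1.88 against 2.55, 8.37 and 3.22. Itgax, the integrin CD11c, was 6.56-fold higher and Mmp12, macrophage elastase, 5.18-fold higher, the latter not called without BDL replicate 2, MDR replicate 2 or MDR replicate 3. Chil3, a chitinase-like protein of alternatively activated macrophages, was the lower member, at 10.2, 5.38 and 4.92 against 0.532, 0.538 and 0.418 FPKM (13.8-fold lower). Clec4f, a Kupffer cell lectin, overlapped between the groups (21.1, 47.5 and 48.2 in BDL, 37.9, 43.8 and 52.8 in MDR, adjusted p = 0.532), and Cd68, a lysosomal macrophage protein, did too (adjusted p = 0.559). Without MDR replicate 2, 2 recruited macrophage markers were called higher, without BDL replicate 2 and without MDR replicate 3, 3, and without BDL replicate 1, 5.

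Lymphocyte transcripts were mostly low. In MDR 6 of 9 tested T and NK cell markers and 3 of 5 tested B and plasma cell markers were higher. Values were given for 21 and 13 members of these lists, and the others did not reach the filter of 1 FPKM in 3 libraries. Cd4, Lck and Cd79a reached 1 FPKM only in MDR or MDR_H libraries, so the filter kept them through their high side. The share of tested members called is therefore no measure of the lists as a whole. Thy1, also on the stellate activation list, and Ccl5, also on the chemokine list, were among the 6. Cd74, also on the class II list, was among the 3. With only the 6 libraries compared 3 and 2 were called, and with quantile normalization 3 and 1. Cd4 was at 0.176, 0.259 and 0.330 FPKM in BDL and at 1.01, 1.48 and 1.11 in MDR, Lck, the kinase of the T cell receptor, was 6.98-fold higher and Cd79a, the B cell receptor chain, 6.66-fold higher. The summed level of the T and NK markers was 4.09 to 10.7 FPKM in BDL and 18.9 to 32.2 in MDR, and that of the B and plasma markers 138.5 to 276.0 and 491.0 to 797.8. Cd74 took 27.2 to 48.3% of the latter sum in BDL and 75.0 to 85.6% in MDR, and without it the sums overlapped, at 100.8 to 142.6 and 115.0 to 132.5 FPKM. Cd3d, Cd5, Cd8b1 and Prf1, and Blk, Ebf1, Fcrla, Ms4a1 and Mzb1, were among those at 0 in at least 1 library. Ccl21a, a chemokine of lymphatic vessels, had the largest difference among the genes called higher that are named here: 0.441, 0.633 and 1.17 FPKM in BDL against 14.7, 32.6 and 21.7 in MDR (log2 difference 3.73 ± 0.28 SE, adjusted p = 9.07e-05). Mouse Ccl21 genes are near-identical copies, so its reads may be shared. Ccl22, a chemokine of dendritic cells, was at 0.0704, 0.221 and 0.129 against 2.99, 3.56 and 3.35 FPKM, Ccl8 at 0, 0.488 and 0.255 against 3.26, 7.79 and 5.30, and Cx3cl1, fractalkine, was 5.11-fold higher. Cxcl1, a chemokine for neutrophils, was 7.06-fold lower (28.0, 61.9 and 35.4 against 7.24, 6.29 and 4.21 FPKM, adjusted p = 0.00393).

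Prtn3, proteinase 3 of neutrophil granules, was at 10.6, 13.3 and 13.8 FPKM in BDL and at 0.232, 0.605 and 0.138 in MDR, 38.7-fold lower (log2 difference -3.36 ± 0.16 SE, adjusted p = 2.71e-06). Other granule genes did not share that level. Elane was at 0.305, 0.163 and 0 in BDL, Mpo at 0.0100, 0.0392 and 0.0204, and Ctsg and Ly6g at 0 in all 6 libraries; Elane, Mpo and Ctsg were chosen after the values of Prtn3 were seen. The neutrophil calprotectin genes overlapped between the groups, with S100a9 at 9.83, 26.3 and 16.0 FPKM in BDL and 7.71, 27.8 and 11.2 in MDR. The summed neutrophil list was 1007.2 to 1111.8 FPKM in BDL and 114.8 to 260.3 in MDR. Lcn2, which hepatocytes also make, took 92.5 to 96.1% of it in BDL and 72.9 to 88.6% in MDR, and without Lcn2 the sums overlapped, at 39.7 to 79.6 and 20.5 to 67.1 FPKM.

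Matrix genes were higher in MDR. Of 39 tested extracellular matrix and crosslinking genes 27 were higher and 0 lower (34 higher and 0 lower at an unadjusted p under 0.05), with a median log2 difference of 1.26, and 20 were higher after median-of-ratios scaling. Dpt, dermatopontin, was at 1.77, 2.96 and 3.83 FPKM in BDL and at 20.6, 46.0 and 32.8 in MDR, 11.6-fold higher (adjusted p = 8.24e-04). Lum, lumican, was 7.43-fold higher (4.45, 6.15 and 7.58 against 21.8, 73.8 and 39.4) and Dcn, decorin, a proteoglycan of fibroblasts, 3.59-fold. Col1a1, the main fibrillar collagen, did not pass: 8.85, 11.1 and 12.8 against 12.2, 26.5 and 24.8 FPKM (adjusted p = 0.185). MDR replicate 1 lay inside the BDL range for Col1a1 and was the lowest of the 3 MDR libraries for Dpt and Lum. Among 12 tested metalloproteinases and inhibitors 6 were higher, such as Mmp2 (6.00-fold), Timp2 (4.32-fold) and Timp3 (4.76-fold), and Timp1 was not called (1.69-fold, adjusted p = 0.160). Matrix calls numbered 10 without MDR replicate 2 and 14 without MDR replicate 3.

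Of 14 tested quiescent stellate cell markers 11 were higher and of 24 genes of myofibroblasts and stellate activation 12 were higher and 1 lower. The 12 became 7 after median-of-ratios scaling, 5 without BDL replicate 1, 4 without MDR replicate 2 and 4 without MDR replicate 3. The median log2 difference of the first list was 1.51. Colec11, a collectin of stellate cells, was at 2.78, 6.25 and 6.72 FPKM in BDL and at 16.6, 23.3 and 23.1 in MDR, 4.00-fold higher (adjusted p = 0.00181), and Rgs5, a pericyte G-protein regulator, was 5.66-fold higher. Pdgfrb, the platelet growth factor receptor of stellate cells, was 4.92-fold higher and Tgfb3 5.09-fold. Acta2, smooth muscle actin and the classical mark of activated stellate cells, overlapped between groups: 0.711, 3.47 and 4.55 FPKM in BDL and 2.82, 2.72 and 4.51 in MDR (adjusted p = 0.651). Summed, the quiescent markers stood at 53.3 to 94.4 FPKM in BDL and 164.6 to 222.7 in MDR.

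Duct markers differed in part. Of 24 tested cholangiocyte and ductular genes 14 were higher and 0 lower, 10 after median-of-ratios scaling, and 9 without MDR replicate 2. Epcam, an epithelial adhesion molecule of ducts and progenitors, was at 2.22, 3.50 and 3.83 FPKM in BDL and at 10.3, 16.6 and 12.4 in MDR, 4.12-fold higher (adjusted p = 0.00268). Krt7 was 2.57-fold and Krt19 2.58-fold higher, both duct keratins; Krt19 was not called without MDR replicate 2 or after median-of-ratios scaling (adjusted p = 0.0664). Sox9, a duct transcription factor, was at 3.31, 5.08 and 4.66 against 4.89, 4.30 and 3.62 (adjusted p = 0.969), and Spp1, osteopontin, overlapped as well (adjusted p = 0.286). The summed level of the list, 544.5 to 2264.6 FPKM in BDL and 1375.2 to 1677.4 in MDR, did not separate the groups.

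Of 22 tested vascular endothelial markers 14 were higher and 0 lower, and of 20 sinusoidal markers 11 were higher and 0 lower. After median-of-ratios scaling these were 8 and 1. Cd34, an endothelial sialomucin, was at 0.477, 1.72 and 2.47 FPKM in BDL and at 6.52, 12.7 and 8.90 in MDR, 6.02-fold higher (adjusted p = 0.00293), and Vwf, von Willebrand factor, was 3.38-fold higher. Pecam1, also on the vascular side, did not overlap between the groups. Cdh5, a further vascular marker, did: its MDR values all lay within its BDL range of 2.49 to 15.9 FPKM. Stab2, a scavenger receptor of sinusoidal cells, did not pass (adjusted p = 0.0700). Lyve1, another sinusoidal marker, overlapped, with MDR replicate 1 at 2.94 FPKM and BDL replicate 3 at 4.79. All MDR libraries lay above all BDL libraries for 17 of the 22 vascular and 12 of the 20 sinusoidal markers. The vascular list had 3 calls without MDR replicate 2, 4 without MDR replicate 3 and 8 without BDL replicate 2; the sinusoidal list had 0, 1, 2 and 4 without MDR replicate 2, MDR replicate 3, BDL replicate 2 and BDL replicate 1, and 17 without BDL replicate 3. BDL replicate 1 had the lowest summed vascular level, 59.3 FPKM, against 170.6 and 234.4 in the other BDL libraries.

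**Figure D2:**
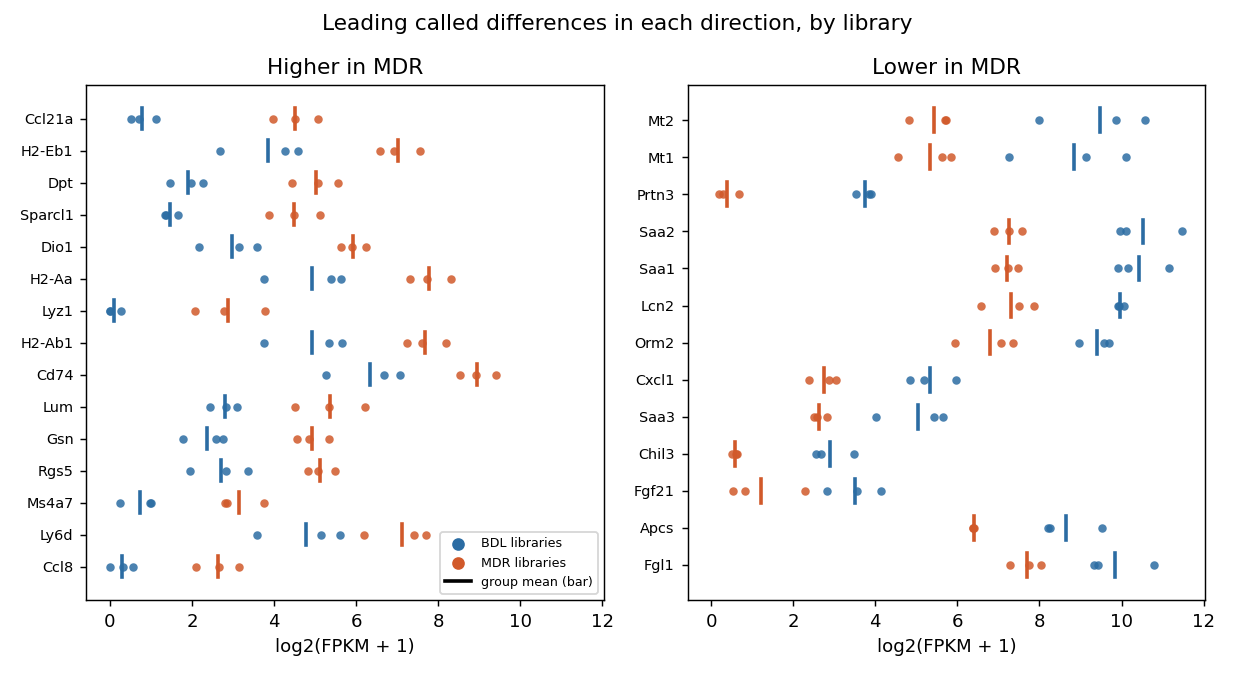
Log2(FPKM + 1) of genes from among the 15 with the largest called difference in each direction, in the 3 BDL (blue) and 3 MDR (orange) libraries, with bars at the group means. The groups do not overlap for any gene shown, which the rule for choosing them required; within BDL the points of Mt1 and Mt2 are widely spread.

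**Figure D3:**
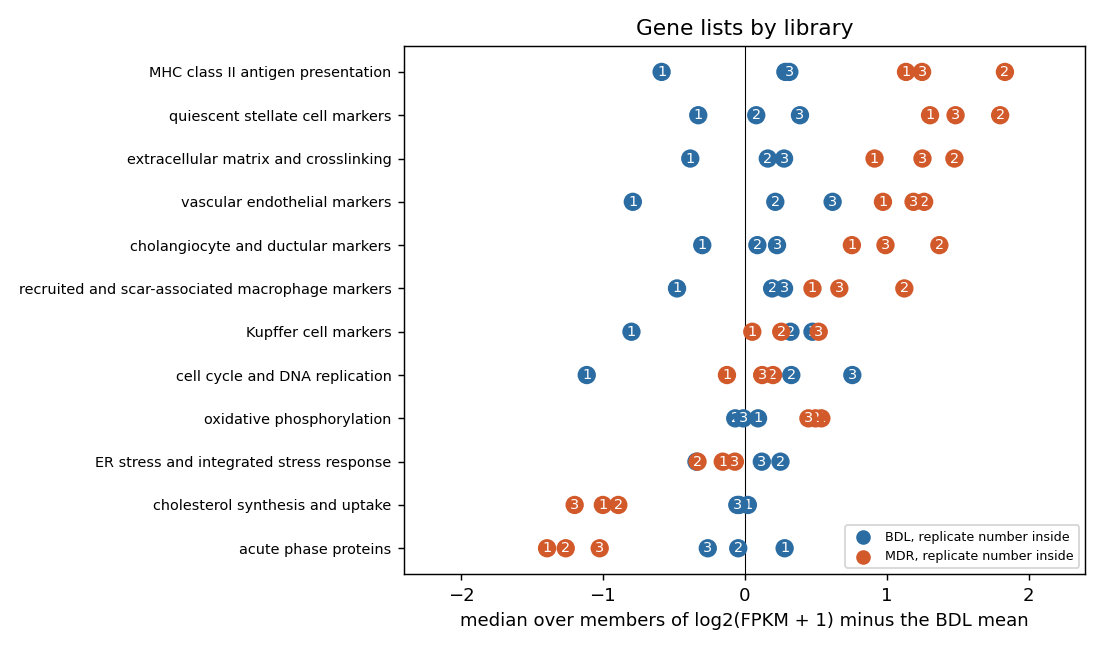
Median over list members of log2(FPKM + 1) minus the BDL mean, for 12 lists, by library; the number in each point is the replicate. BDL replicate 1 is the lowest library for the stellate, matrix, endothelial and cell cycle lists, and the MDR libraries lie below all BDL libraries for cholesterol synthesis (-1.20 to -0.89) and acute phase proteins (-1.39 to -1.02).

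Hepatocyte metabolism depended on the scaling. Of 38 tested oxidative phosphorylation genes 25 were higher as deposited, with a median log2 difference of 0.50, and 0 after median-of-ratios scaling, with a median of 0.19; limma-voom called 26 on recovered reads. The number was 8 without MDR replicate 2, 10 without MDR replicate 3, 9 without BDL replicate 2 and 16 without MDR replicate 1. Uqcrc2, of complex III, was at 89.2, 85.5 and 92.3 FPKM in BDL and 129.7, 129.9 and 127.1 in MDR, 1.45-fold higher (adjusted p = 0.00716, but 0.342 after scaling). The urea and amino acid list gave 9 of 33 and then 0, fatty acid oxidation 4 of 33 and then 0. Glycolysis and glucose production gave 8 of 26 and then 2. Over all genes tested 15.1% were higher as deposited, and the fatty acid oxidation count is near that share. With quantile normalization the urea list had 6 higher calls, fatty acid oxidation 0, glycolysis 4 and oxidative phosphorylation 12. Without MDR replicate 2 the urea list had 4 calls as deposited, fatty acid oxidation 0 and glycolysis 5. Without BDL replicate 2 or MDR replicate 3 these 3 lists had 4, 0 and 4. Fatty acid oxidation had 8 calls without BDL replicate 1, 1 without BDL replicate 3 and 1 without MDR replicate 1. Of 22 tested genes expressed near the central vein 7 were higher and 1 lower, and 3 higher and 2 lower after scaling. Rhbg, an ammonium transporter of that zone, was 2.59-fold higher (5.47, 3.98 and 3.80 against 11.5, 11.4 and 11.5 FPKM, adjusted p = 0.00348 and 0.0168 after scaling), and Rnf43 and Nkd1, Wnt feedback genes, were 2.13-fold and 2.90-fold higher. Dio1, the deiodinase that activates thyroxine, was among the leading higher genes, at 3.50, 11.1 and 7.92 FPKM in BDL and at 75.0, 58.3 and 48.2 in MDR (8.04-fold, adjusted p = 0.00270).

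Over 4 lists of bile acid genes 6 of 47 tested members were higher and 1 lower, 12.8% and 2.13%, near the 15.1% and 1.07% of all genes tested. Of 15 tested synthesis genes 4 were higher (Hsd3b7, Akr1c6, Amacr and Hsd17b4) and 0 lower, and 0 after median-of-ratios scaling. These 4 calls became 0 without BDL replicate 2, MDR replicate 1 or MDR replicate 2, 1 without BDL replicate 1 or MDR replicate 3, and 2 without BDL replicate 3. Cyp7a1, the rate-limiting enzyme, was at 72.8, 8.87 and 14.7 FPKM in BDL and at 12.1, 23.3 and 18.8 in MDR (adjusted p = 0.733); its sign turns to 0.79 with array weights, whose estimation stopped before it converged and which give BDL replicate 1, the highest library, a weight of 0.134. Among 10 canalicular transporters 0 passed (limma and limma-voom, with 1 higher and 1 lower at an unadjusted p under 0.05). Abcb11, the bile salt export pump, stood at 90.2, 163.0 and 190.3 against 137.2, 132.0 and 141.8 FPKM (log2 difference -0.04 ± 0.42 SE, adjusted p = 0.953), and Slc10a1, the uptake carrier NTCP, at 334.4, 104.8 and 108.5 against 125.0, 107.3 and 115.9 (adjusted p = 0.390). Nr0b2, the FXR-induced repressor SHP, was at 31.8, 33.1 and 52.1 against 21.0, 14.1 and 14.2 (adjusted p = 0.0852, and 0.0322 after median-of-ratios scaling). Of 39 tested cell cycle genes 0 passed in either test, and 0 did at an unadjusted p under 0.05. Their median log2 difference was 0.03, and -0.49 without BDL replicate 1; without that library and BDL_H replicate 2 together 8 were called lower.

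**Figure D4:**
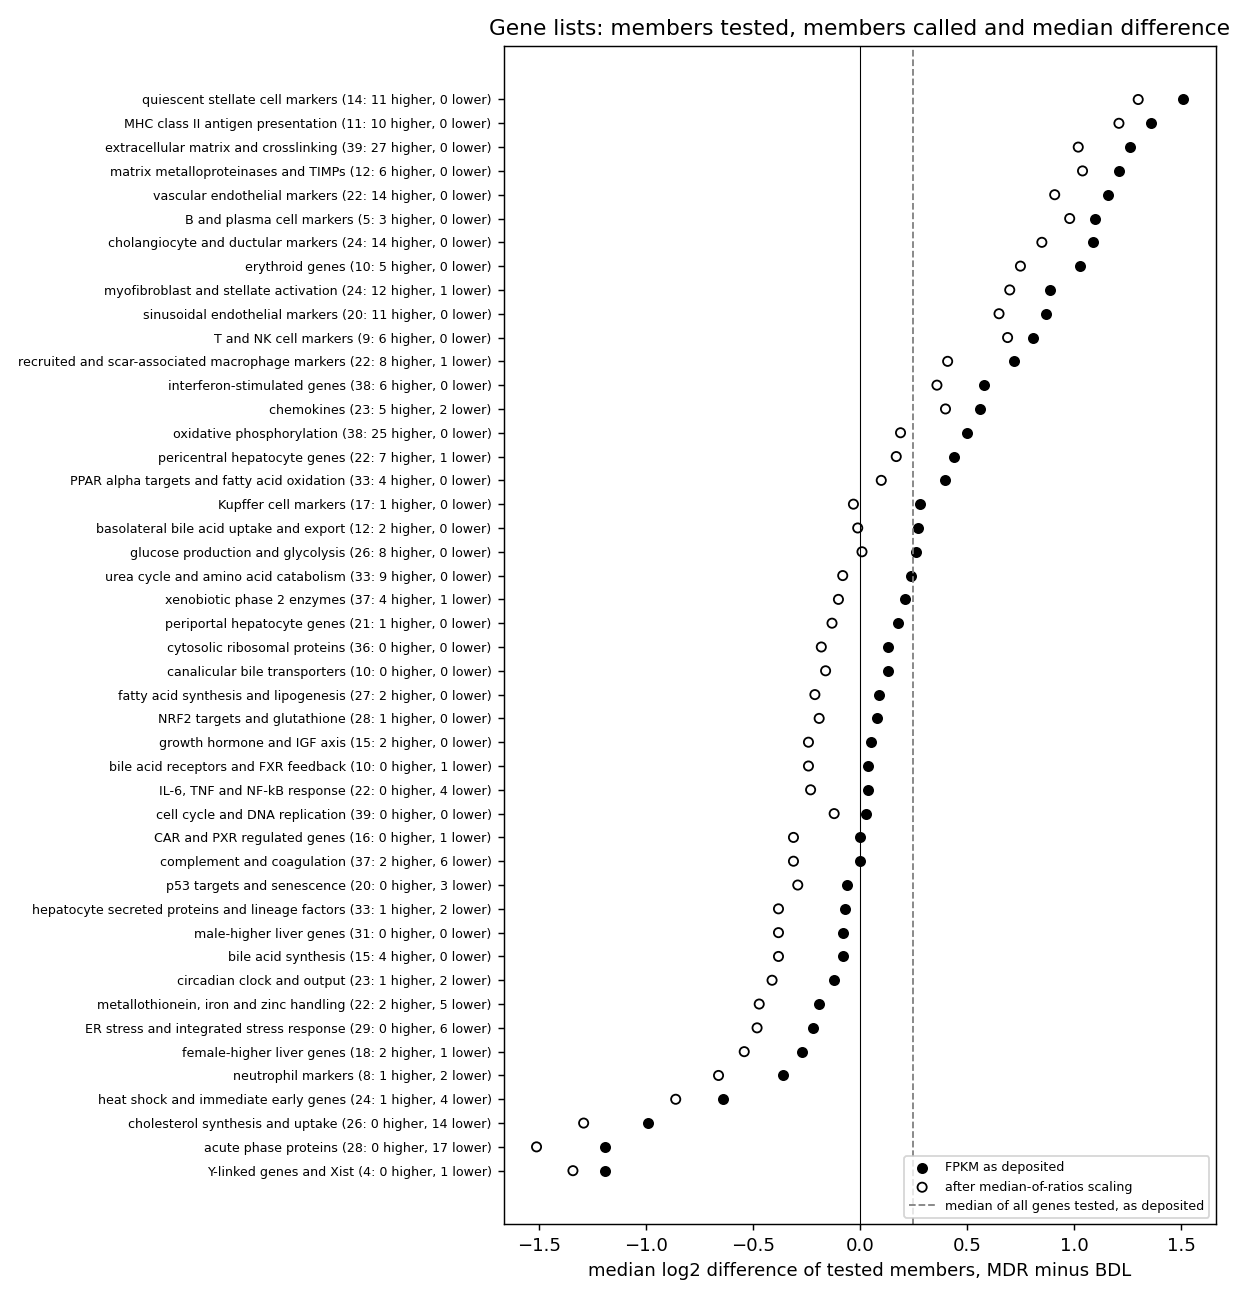
Median log2 difference of the tested members of each of 46 gene lists, as deposited (filled) and after median-of-ratios scaling (open); each label gives the members tested and those called as deposited. Scaling moves nearly all lists down by a similar amount, and under either setting the acute phase, cholesterol and Y-linked lists lie at the bottom and the quiescent stellate, class II and matrix lists near the top.

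The HDCA libraries give the contrast of the models in 6 other libraries. The comparisons share no library, but both come from 1 fit and share each gene's variance estimate, so their calls are not independent. HDCA was given for 4 days in the ligated mice and 21 in the Abcb4-/- mice. Ddx3y was at 9.91 to 10.9 FPKM in BDL_H and at 0, 0 and 0.00523 in MDR_H, and all 4 tested Y-linked genes were called lower there, so in the HDCA libraries model, length of dosing and Y-linked reads cannot be told apart. In that contrast 795 genes (7.36%) were higher and 101 (0.935%) lower in MDR_H than in BDL_H. Of the 1630 genes higher in the untreated comparison 1620 had a positive difference in the HDCA libraries, against 77.0% of all genes tested, and 597 were called higher; 36.6% of the untreated calls and 75.1% of the HDCA calls were in both. Of the 116 lower genes 113 were negative there and 61 called, 52.6% of the untreated calls and 60.4% of the HDCA ones. Mt2 had a log2 difference of -3.18 in the HDCA libraries and -4.05 in the untreated, Saa1 -4.01 and -3.21, Ccl21a 2.39 and 3.73, and Dio1 3.00 and 2.94. Fgf21 and Alas1, the first enzyme of heme synthesis, were called lower in the untreated libraries and not in the HDCA libraries, where they stood at 0.03 (adjusted p = 0.973) and -0.09 (adjusted p = 0.906) against -2.30 and -1.66 untreated; the difference between the comparisons was not tested.

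**Figure D5:**
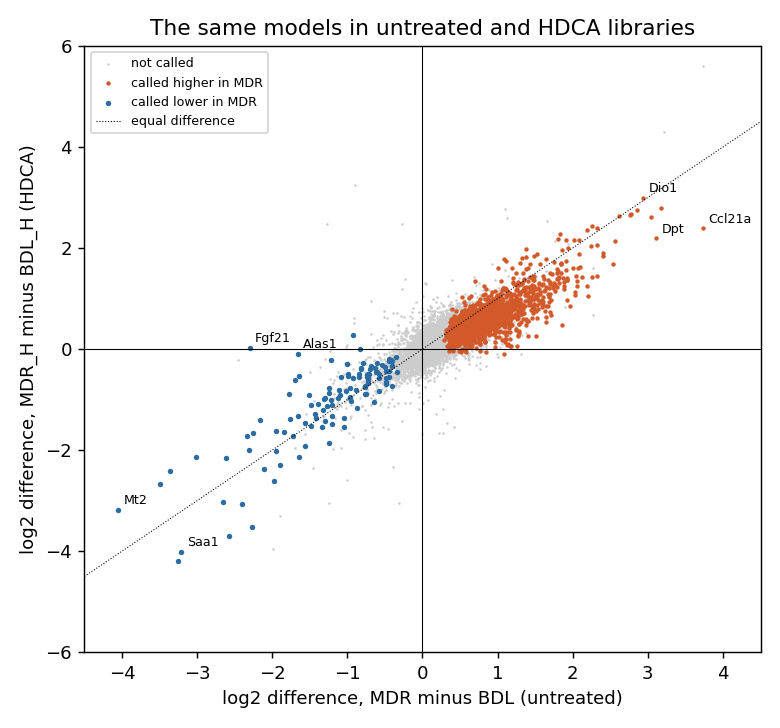
Log2 difference in the HDCA libraries, MDR_H minus BDL_H, against that in the untreated libraries, MDR minus BDL, for all tested genes; orange and blue mark genes called in the untreated comparison and the dotted line equal differences. Most called genes have the same sign on both axes, while Fgf21 and Alas1 lie near 0 on the HDCA axis.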

How the data were processed

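Poly(A) RNA from mouse liver was sequenced in 12 libraries, 3 a group. The authors deposited 1 table of FPKM values per gene; per the submitters' processing notes reads were handled with featureCounts 1.5.0-p3, HISAT2 2.0.5, fastp, DESeq2 1.20.0 and CASAVA 1.8 (the notes give no roles), on build GRCm38 (mm10). The counting's strand setting is not given in the sources used here. Whole reads were recovered from the FPKM steps for 16968 of 16970 genes, 99.99%, at a tolerance of 0.02 reads; Fn1 and Mmp9 were not whole.

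Differences were tested with limma 3.58.1 in R 4.3.3 on log2(FPKM + 1), with a trend and 4 group means over all 12 libraries (8 residual degrees of freedom), two-sided, with Benjamini-Hochberg adjustment over all 10805 genes tested; the pseudocount of 1 understates changes of low genes. A gene was called at an adjusted p under 0.05. Median-of-ratios scaling divided each library by the median ratio to the genes' geometric means. Scripts were tested on simulated data. Named genes are the 15 largest called differences in each direction with no overlap and whose higher group averaged 2 FPKM or more, up to 4 members with the smallest p of each list, and 30 key genes; cell type markers were set likewise. Some genes that the rule names are not reported here. The members and lists were chosen with earlier results of these data known. Positions and windows are from RefSeq and GENCODE M21. Same-numbered libraries correlated at -0.201, -0.149 and -0.244 in their deviations from the group means, and other pairs at -0.180 to 0.246. Such deviations sum to 0 within a group, so they cannot show whether same-numbered samples were paired. The test treats them as unpaired. No pair of libraries agreed within sampling noise (the smallest chi-square per gene was 32.4).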

Additional observations from a re-analysis of the deposited data

How the results depend on the processing

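The number of genes called moved with the settings, in both directions of the calls. Genes higher and lower in MDR were 1630 and 116 as reported. They were 650 higher with only the 6 libraries compared, 540 and 76 among genes averaging 5 FPKM or more, 548 and 393 with quantile normalization, 671 and 381 with median-of-ratios scaling, and 4201 and 746 with array weights, whose estimation stopped before it converged. Without BDL replicate 1 and BDL_H replicate 2 together 361 genes were lower. MDR replicate 1 alone against BDL gave 8 and 3. Leaving out 1 library gave 452 to 1611 higher genes and 37 to 139 lower genes. With only the 6 libraries compared, members called higher fell from 27 to 15 for matrix, 12 to 4 for myofibroblasts, 14 to 3 for vascular and 11 to 0 for sinusoidal endothelium, and 6 to 1 for interferon-stimulated genes. The replicate block, which treats same-numbered libraries as matched, gave 1254 and 97. Of the 143 named genes called, 109 kept the call after median-of-ratios scaling, 139 with limma-voom and 93 without MDR replicate 2. The log2 difference of Ddx3y turned to 0.08 with MDR replicate 1 alone, which leaves out the MDR libraries listed at 0 for it. That of Cyp7a1 turned to 0.79 with array weights, which weight its highest BDL library, replicate 1, at 0.134. Why these libraries differ was not tested. Genes under about 1 FPKM rest on few reads, so their fold changes are imprecise.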

Other observations

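Of 10 tested erythroid genes 5 were higher in MDR, 2 after median-of-ratios scaling and 0 with only the 6 libraries compared (7 at an unadjusted p under 0.05 and 4 in limma-voom over all 12). Hbb-bs, beta globin, was at 47.4, 86.6 and 129.5 FPKM in BDL and at 178.3, 245.4 and 221.8 in MDR (limma, adjusted p = 0.0203), a call lost without BDL replicate 2, MDR replicate 2 or MDR replicate 3. The 5 calls fell to 0 without MDR replicate 3 and to 1 without BDL replicate 1, BDL replicate 2 or MDR replicate 2. The summed erythroid list was 111.7 to 278.5 FPKM in BDL and 395.8 to 507.2 in MDR. Of 38 tested interferon-stimulated genes 6 were higher and 0 lower, a share near the 15.1% of all genes tested that were higher. Among the 6 were Ifi44 (3.14-fold) and Oasl2 (2.74-fold). The 6 calls fell to 0 without MDR replicate 2 or MDR replicate 3 and to 1 without BDL replicate 1. Ntrk2, a neurotrophin receptor gene from the female-higher list, was at 0.0173, 0.0406 and 0.323 FPKM in BDL and at 4.15, 5.37 and 3.73 in MDR (log2 difference 2.26 ± 0.17 SE, adjusted p = 9.07e-05). Ugt1a5, a glucuronosyltransferase, was 5.79-fold lower (9.72, 18.1 and 15.1 against 2.65, 1.93 and 2.82 FPKM); the Ugt1a transcripts share exons, so its value is uncertain. Of 23 tested genes of the circadian clock and its output 1 was higher and 2 lower, against 15.1% and 1.07% of all genes tested. The higher one, Npas2, a clock transcription factor, was at 0.0479, 0.616 and 0.593 against 2.47, 2.64 and 2.49 FPKM. Per2, a clock repressor, was 2.20-fold lower, a call lost without BDL replicate 1 or any of the MDR replicates. The other lower member was Alas1, and Per1 overlapped between the groups and was not called (limma, adjusted p = 0.0503). No label gives the hour of sampling, so time of day was not tested.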
